A study of Saccharomyces pastorianus with 12 samples.

Results

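The lager yeast strain SpIB1 was followed between days 2 and 5 of a wort fermentation by messenger RNA sequencing. The 6 libraries of this strain, out of 12 in the series, were chosen by the strain name of their deposited count tables, and each table gave a read count for the same 11312 gene copies. The comparison was of 3 libraries of SpIB1 taken on day 5 against 3 libraries of SpIB1 taken on day 2. Both groups were Saccharomyces pastorianus grown in brewing wort at 16 °C, from which RNA was taken with hot phenol, kept at an integrity number above 8 and made into polyA libraries by a commercial provider. The other 6 libraries, from strain SpIB2 on day 5 and on day 2 of the same kind of fermentation, entered only where the change in SpIB1 was compared with that in SpIB2. The labels name no genetic change in either strain, nor do they say that each replicate came from its own fermentation. The p-values therefore reflect how these samples spread, and part of that spread may be technical.

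Saccharomyces pastorianus is a hybrid of Saccharomyces cerevisiae and Saccharomyces eubayanus and carries most genes as copies from both parents. In a brewery it takes up the sugars of malt wort in turn, with glucose and fructose before maltose and maltotriose, and ferments them to ethanol and carbon dioxide. Oxygen is supplied mainly at the start, and yeast needs it to make ergosterol, the main sterol of its membranes, unsaturated fatty acids and heme. As preferred nitrogen sources run out, yeast relieves nitrogen catabolite repression, the control that keeps transporters and enzymes for poorer nitrogen sources low. The series asks which genes lie behind the unequal use of maltose and maltotriose by the 2 strains.

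Of the 11312 copies, 9289 carried a gene symbol, mostly followed by a copy number, and 2023 only a locus tag. Which parent a copy came from is not stated, so a copy is called here by its symbol and number (TIR1_2 is copy 2 of TIR1), and roles are those of the Saccharomyces cerevisiae gene of that symbol. Total reads ran from 6564234 to 7989133 per library on day 5 and from 6459798 to 6826235 on day 2, so that a count of 3 reads was worth 0.376 to 0.464 CPM (counts scaled to a fixed library size). Replicates correlated at a Pearson r of 0.952 to 0.979 on day 5 and of 0.969 to 0.986 on day 2, against 0.892 to 0.931 between days (log2 CPM across copies, which are not independent). The strain label held in the reads, since 311 copies had 0 reads in all 6 SpIB1 libraries, and 176 of these had reads in every SpIB2 library. The 100 most abundant copies took 19.5 to 21.5% of reads on day 5 and 26.9 to 27.2% on day 2.

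CPM levels are given after scaling by TMM, edgeR's method that trims extreme copies before it sets library sizes, and each value is a share of the mRNA pool, so that fewer cells of a kind and less of an mRNA per cell cannot be told apart. At a Benjamini-Hochberg adjusted p under 0.05 in edgeR's quasi-likelihood test, 1074 of 10349 tested copies (10.4%) were higher on day 5 and 1133 (10.9%) were lower, 21.3% in all. At least 2-fold changes made up 3.04% higher and 5.11% lower. The libraries of the 2 days did not overlap in 20.2% of copies in the upward direction and in 20.0% in the downward direction. Scaling by library totals in place of TMM moved the median change of all copies by 0.26 on the log2 scale, and with it the calls stood at 2575 higher and 686 lower, so that the higher ones made up 79.0% of calls against 48.7% with TMM. Without day 2 replicate 1, day 2 replicate 2 or day 5 replicate 2 the higher calls numbered 366, 504 and 433 and the lower ones 636, 710 and 566. In 1 fit to all 12 libraries, with a spread shared with SpIB2, the calls for SpIB1 fell to 92 higher and 278 lower, among them 24 of the low-oxygen and 20 of the ergosterol copies described below but 3 of the respiratory chain and 1 of the cytosolic ribosomal proteins as higher.

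**Figure D1:**
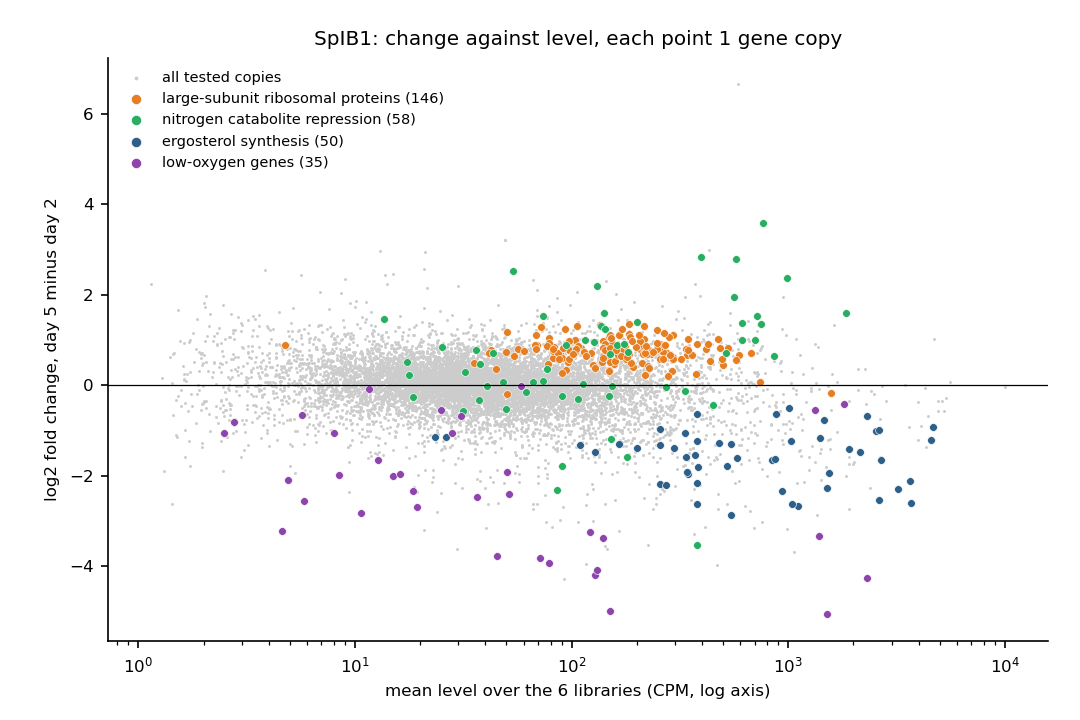
Log2 fold change (day 5 minus day 2) of each tested gene copy of SpIB1 against its mean level over the 6 libraries in CPM on a log axis, with 4 gene lists in colour. The 50 ergosterol copies lie below 0, large-subunit ribosomal proteins form a band with a median of 0.75, and low-oxygen genes reach -5.07.

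The steepest falls were in genes that yeast uses when oxygen is scarce. The mannoprotein copy TIR1_2, a cell wall protein made in cold or oxygen-poor cultures, stood at 116, 52.4 and 94.8 CPM on day 5, against 2689, 2487 and 3640 CPM on day 2 (log2 fold change -5.07 ± 0.39 SE, edgeR adjusted p = 0.000114). Its second copy TIR1_1 stood at 386, 105 and 193 CPM on day 5, against 3989, 3730 and 5466 CPM on day 2. Every day 5 library of both copies was below every day 2 library, by about an order of magnitude or more. The seripauperin copy PAU17_1, of a large family of small wall proteins, had 14.8, 5.32 and 7.31 CPM on day 5, against 300.5, 281 and 292 CPM on day 2 (log2 fold change -5.00 ± 0.35 SE, edgeR adjusted p = 9.79e-05). ANB1_2, the form of translation factor eIF5A made without oxygen, had 14.9, 6.21 and 7.78 CPM on day 5, against 159.7, 147 and 136 CPM on day 2 (log2 fold change -3.94 ± 0.30 SE, edgeR adjusted p = 0.000114). AUS1_1, a transporter that brings sterol into cells that cannot make it, had 35.9, 17.9 and 19.9 CPM on day 5, against 215, 225 and 323 CPM on day 2. In all of these, day 5 replicate 2 was the lowest library and day 5 replicate 1 the highest.

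Of the 53 copies in the list of low-oxygen genes (PAU and TIR wall proteins, ANB1, AAC3, HYP2, the sterol importers AUS1 and PDR11, and the fumarate reductases FRD1 and OSM1), 18 were below the filter on low counts. Among the 35 tested, 27 fell (77.1% against 10.9% of all copies) and edgeR called 0 higher, as did DESeq2 and limma voom, with 0 at an unadjusted p under 0.05. The list had a median log2 fold change of -2.35 (0.02 over all copies), and its summed level was 2611 to 4672 CPM on day 5 and 15037 to 17159 CPM on day 2. The 27 numbered 25 to 27 when each library was left out in turn. TIR4 (10.1-fold lower), PAU5_2 (16.9-fold) and AAC3_1, an ADP/ATP carrier made without oxygen (7.07-fold), also fell. HYP2_1, the aerobic counterpart of ANB1, had 1437, 850 and 937 CPM on day 5, against 1663, 1882 and 1207 CPM on day 2, with days that overlapped (log2 fold change -0.56 ± 0.30 SE, edgeR adjusted p = 0.205). Without day 5 replicate 1 it was called lower (edgeR adjusted p = 0.047). Copies of the PAU family are near-identical and may hold each other's reads, so values of single members are uncertain.

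Ergosterol synthesis fell as a whole pathway. Of 50 tested copies of its enzymes, from acetyl-CoA to ergosterol and its esters, 44 were lower on day 5 (88.0%) and edgeR called 0 higher, with 0 at an unadjusted p under 0.05 and 0 by DESeq2 and limma voom. The median log2 fold change was -1.48 (-1.23 with library totals), the range was -2.88 to -0.50, and the summed level was 21853 to 41432 CPM on day 5 and 71319 to 95445 CPM on day 2. With each library left out in turn, 35 to 49 copies were called lower.

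The largest change in the pathway was that of ERG3_2. This copy of a sterol desaturase stood at 192, 78.8 and 120.0 CPM on day 5, against 943, 1023 and 909.5 CPM on day 2 (log2 fold change -2.88 ± 0.33 SE, edgeR adjusted p = 0.000677). ERG6_1, a sterol methyltransferase, had 485, 183 and 238 CPM on day 5, against 1976, 1944 and 1855 CPM on day 2 (log2 fold change -2.67 ± 0.37 SE, edgeR adjusted p = 0.00184). The day 5 libraries of ERG6_1 differed more among themselves than those of day 2 did, and all lay below them. NCP1_2, the reductase that passes electrons to several of these enzymes, was 6.25-fold lower, and ARE2_2, which esterifies sterols for storage, had 1458, 595 and 1083 CPM on day 5, against 7316, 6867 and 4851 CPM on day 2. UPC2_1 and ECM22_1, activators of the sterol genes placed in the list of heme and oxygen regulators, fell as well, by 1.69 and 1.16 on the log2 scale (edgeR adjusted p = 0.00231 and 0.00952).

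**Figure D2:**
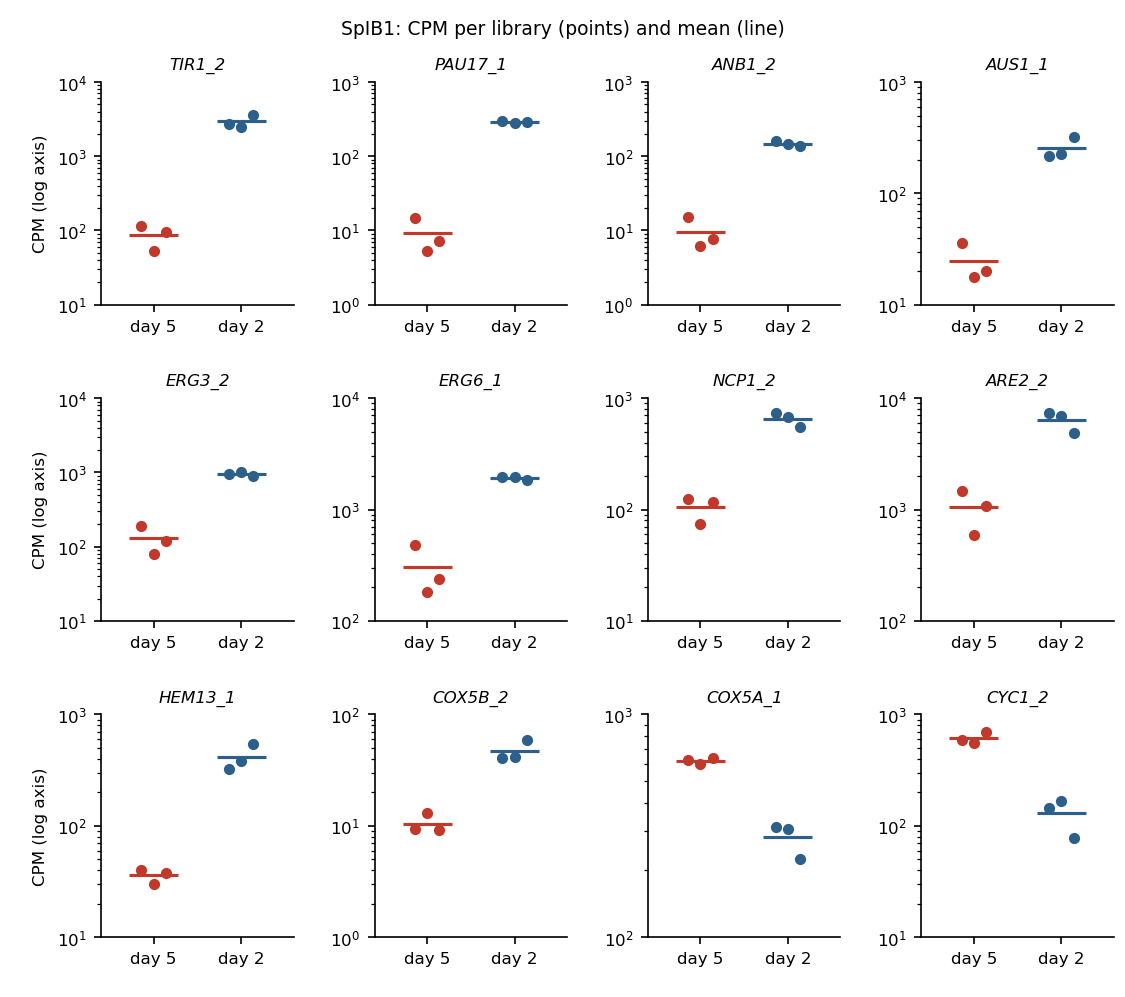
CPM of 12 gene copies in each SpIB1 library (points, log axes that differ between panels) with the mean of each day (line), day 5 in red and day 2 in blue. The 10 copies from TIR1_2 to COX5B_2 lie lower on day 5 in every library, while COX5A_1 and CYC1_2 lie higher.

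Single copies of acetate and fatty acid activation enzymes also fell. The cytosolic acetaldehyde dehydrogenase copy ALD6_2 had 81.3, 104 and 68.2 CPM on day 5, against 869, 748.5 and 619 CPM on day 2 (log2 fold change -3.14 ± 0.25 SE, edgeR adjusted p = 0.000154). The acetyl-CoA synthetase copy ACS2_1 was 4.03-fold lower, and the fatty acyl-CoA synthetases FAA1_2 and FAA4_1 were 3.61-fold and 3.35-fold lower. The list of fatty acid and phospholipid synthesis had 11 of 39 copies lower and 4 higher, but the 11 numbered 4, 4, 3 and 3 without day 2 replicate 1, day 2 replicate 2, day 5 replicate 2 or day 5 replicate 3, and the 4 numbered 1, 2, 2 and 2 without day 2 replicate 1, day 2 replicate 3, day 5 replicate 2 or day 5 replicate 3. OLE1, the only fatty acid desaturase of yeast and an oxygen-using enzyme, did not pass the test. OLE1_2 had 10617, 8786 and 10064 CPM on day 5, against 9749, 10604 and 10193 CPM on day 2 (log2 fold change -0.05 ± 0.30 SE, edgeR adjusted p = 0.922), and OLE1_1 had a log2 fold change of 0.08 ± 0.28 SE.

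Heme synthesis genes and the regulators that read heme and oxygen were lower as a list, with 17 of 33 copies called lower and 0 higher by edgeR, DESeq2 and limma voom (1 higher at an unadjusted p under 0.05). HEM13_1, the oxygen-requiring coproporphyrinogen oxidase, had 39.9, 30.0 and 37.5 CPM on day 5, against 323, 380 and 543 CPM on day 2 (log2 fold change -3.54 ± 0.25 SE, edgeR adjusted p = 0.000107). HAP1_1, the heme-dependent activator, was 2.06-fold lower and MOT3_1, a repressor of low-oxygen genes, was 3.36-fold lower. The summed level of the list was 2755 to 4230 CPM on day 5 and 6287 to 7276 CPM on day 2.

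The respiratory chain went the other way. Of 73 tested copies of its subunits and of ATP synthase, 32 were higher (43.8% against 10.4% of all copies) and 4 lower on day 5, with a median log2 fold change of 0.53 (0.78 with library totals). The higher calls numbered 23 to 37 when each library was left out in turn. CYC1_2, the main cytochrome c, had 588, 559.5 and 701 CPM on day 5, against 144, 168 and 78.0 CPM on day 2 (log2 fold change 2.24 ± 0.29 SE, edgeR adjusted p = 0.00133). NDE1_1, an external NADH dehydrogenase, had 168, 176.5 and 171 CPM on day 5, against 31.5, 71.6 and 20.3 CPM on day 2. The 3 day 5 libraries lay close together, whereas the day 2 libraries spread over more than a factor of 3. The 4 lower copies were those of COX5B and NDE2, and they numbered 2 without day 2 replicate 1, day 2 replicate 3, day 5 replicate 1 or day 5 replicate 2.

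Cytochrome c oxidase takes 1 of 2 exchangeable subunits, COX5A in air and COX5B when oxygen is low. COX5A_1, a copy picked, like HYP2_1 above, after its values were seen, rose to 623, 600.3 and 639 CPM on day 5, against 312, 307 and 225 CPM on day 2 (log2 fold change 1.14 ± 0.21 SE, edgeR adjusted p = 0.00656). COX5B_2 fell to 9.40, 12.9 and 9.08 CPM on day 5, against 40.9, 41.7 and 59.1 CPM on day 2 (log2 fold change -2.17 ± 0.21 SE, edgeR adjusted p = 0.000285). The days did not overlap for either copy. In the citric acid cycle and pyruvate dehydrogenase, edgeR called 0 of 41 tested copies higher and 0 lower, with 1 higher and 3 lower at an unadjusted p under 0.05. DESeq2 called 0 higher and 2 lower, and limma voom 0 and 0.

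Genes under nitrogen catabolite repression rose. Of 58 tested copies, 24 were higher (41.4%) and 6 lower (10.3%), the median log2 fold change was 0.70, and the summed level was 18312 to 21569 CPM on day 5 and 9215 to 11155 CPM on day 2. The higher calls numbered 17 to 26 when each library was left out in turn. Transporters led the rise. OPT2, of the oligopeptide transporter family, had 765, 1630 and 1846 CPM on day 5, against 75.1, 153 and 124 CPM on day 2 (log2 fold change 3.59 ± 0.41 SE, edgeR adjusted p = 0.000669). PUT4_1, the proline permease, had 787, 944 and 1285 CPM on day 5, against 134, 212 and 89.5 CPM on day 2 (log2 fold change 2.79 ± 0.35 SE, edgeR adjusted p = 0.00113). DUR3_1, which carries urea and polyamines, had 2463, 1087 and 1394 CPM on day 5, against 137, 337 and 479 CPM on day 2. The lowest day 5 library was above the highest day 2 library in all 3.

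The general amino acid permease copy GAP1_1 had 846, 799.7 and 1020 CPM on day 5, against 200.1, 268 and 228 CPM on day 2 (log2 fold change 1.94 ± 0.23 SE, edgeR adjusted p = 0.000871). The ammonium permease MEP2_1 was 2.56-fold higher, the arginase CAR1_1 was 2.63-fold higher and DAL80_1, a repressor that is itself under this control, was 5.79-fold higher. The glutamate and aspartate permease DIP5, in the list of other amino acid permeases, was 3.89-fold higher. That list had 5 of 39 copies higher and 3 lower (12.8% and 7.69%, against 10.4% and 10.9% of all copies). Its 5 higher copies numbered 3 without day 2 replicate 1, and its 3 lower ones 6 without day 2 replicate 3 and 8 without day 5 replicate 1.

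Within the same list, the genes of GABA breakdown fell. UGA1_2, the GABA transaminase, had 43.7, 73.5 and 64.5 CPM on day 5, against 503, 816 and 776 CPM on day 2 (log2 fold change -3.53 ± 0.29 SE, edgeR adjusted p = 0.000183). UGA2_2, the next enzyme of that route, was 4.96-fold lower. Both copies of UGA1 and of UGA2 and a copy of the GABA permease UGA4 made up 5 of the 6 lower members, GLN3_1 being the sixth. Amino acid synthesis moved little as a list, with 14 of 124 copies higher and 3 lower and a median log2 fold change of 0.16 (11.3% higher against 10.4% of all copies), although the serine pathway enzyme SER33_2 was 4.54-fold lower. Those 14 numbered 4 without day 2 replicate 1, 8 without day 2 replicate 3, 7 without day 5 replicate 2, 8 without day 5 replicate 3 and 45 with library totals, and the 3 lower ones numbered 1 without day 2 replicate 1, day 2 replicate 2, day 5 replicate 2 or day 5 replicate 3 and 6 without day 5 replicate 1.

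Sulfate assimilation and methionine synthesis fell in 17 of 51 copies, with 1 higher. SUL2_2, a sulfate permease, had 26.3, 13.4 and 18.9 CPM on day 5, against 114, 128 and 116 CPM on day 2 (log2 fold change -2.62 ± 0.24 SE, edgeR adjusted p = 0.000216). MET16_1, of sulfate reduction, was 4.47-fold lower and MET6_1, methionine synthase, was 3.52-fold lower. The 17 lower copies numbered 10 without day 5 replicate 2. The list's median was -0.20, and 0.04 with library totals. In purine synthesis, 7 of 38 copies were higher and 3 lower (18.4% and 7.89%, against 10.4% and 10.9% of all copies). IMD3_2 of GMP synthesis was among the higher ones at 3.39-fold, and ADE3_2 of one-carbon metabolism among the lower ones at 3.16-fold. The 7 numbered 3, 4 and 3 without day 2 replicate 1, 2 or 3, and the 3 numbered 5 without day 2 replicate 3 and 7 without day 5 replicate 1.

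The series is about maltose and maltotriose genes. MAL genes encode permeases, maltases that split maltose inside the cell, and activators, and MAL11 is the broad permease that also carries maltotriose. Of 40 listed copies 39 were tested, 9 were higher (23.1%) and 1 lower on day 5, and the median log2 fold change was 0.26 (0.52 with library totals). The summed level was 8065 to 11891 CPM on day 5 and 4796 to 7472 CPM on day 2. The call of most single members was near the threshold: the 9 higher copies numbered 2, 3 and 4 without day 2 replicate 1, 2 or 3, and 2 and 3 without day 5 replicate 2 or 3, while the lower copy was not called in any of the 6 fits that left out a library.

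Among the maltases, MAL32_1 had 4867, 7095 and 7064 CPM on day 5, against 2327, 3238 and 3799 CPM on day 2 (log2 fold change 1.02 ± 0.32 SE, edgeR adjusted p = 0.0477). Its days did not overlap, but the call ended without any 1 of the libraries other than day 5 replicate 1, with median-ratio size factors and with a spread shared by all 12 libraries. MAL32_2 averaged 175.5 ± 71.3 CPM on day 5 and 147 ± 31.1 CPM on day 2 (SD, n = 3 each), MAL12_1 85.8 ± 25.4 CPM on day 5 and 54.1 ± 18.8 CPM on day 2, and MAL62 193.5 ± 71.1 CPM on day 5 and 165 ± 42.6 CPM on day 2. These 3 overlapped between days and were not called. MAL12_2 had a log2 fold change of 0.85 ± 0.29 SE (edgeR adjusted p = 0.0641), and was called with library totals, by DESeq2 and with the replicate block. When reads were summed over copies, 11.3% of 4699 symbols were called higher and 11.0% lower, and MAL32 was 1.98-fold higher on day 5 (edgeR adjusted p = 0.0433), a call that ended without day 2 replicate 1 or 2 or day 5 replicate 2 or 3.

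Among the permeases, MAL31_1 had 1051, 1423 and 1684 CPM on day 5, against 678, 885 and 1066 CPM on day 2, with days that overlapped slightly (log2 fold change 0.66 ± 0.28 SE, edgeR adjusted p = 0.12). MAL31_2 had a log2 fold change of 0.74 ± 0.28 SE (edgeR adjusted p = 0.0866). Both MAL31 copies were called higher without day 5 replicate 1, with library totals and by DESeq2. MAL11_1 had 69.2, 87.9 and 88.3 CPM on day 5, against 76.4, 75.2 and 62.3 CPM on day 2, and MAL11_2 averaged 91.1 ± 10.6 and 89.3 ± 18.5 CPM (SD, n = 3 each), neither with a detectable difference. The scarce copy MAL11_3 was called higher in every fit run, at 7.97, 11.3 and 25.9 CPM on day 5, against 2.84, 2.67 and 3.42 CPM on day 2 (log2 fold change 2.34 ± 0.44 SE, edgeR adjusted p = 0.00675), with day 5 replicate 3 more than 2-fold above the other day 5 libraries. Summed over copies, MAL11 had a log2 fold change of 0.19 ± 0.18 SE and MAL31 of 0.62 ± 0.28 SE, neither past the threshold. The related permease MPH3 averaged 18.8 ± 2.15 CPM on day 5 and 17.5 ± 3.58 CPM on day 2.

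All 3 copies of the MAL activator MAL33 were called higher, by 0.65, 0.91 and 0.89 on the log2 scale for MAL33_1, MAL33_2 and MAL33_3 (edgeR adjusted p = 0.0422, 0.0184 and 0.0318). MAL33_3 had 57.5, 118 and 95.3 CPM on day 5, against 42.6, 48.4 and 55.5 CPM on day 2. These calls ended without day 2 replicate 1 or 2 or day 5 replicate 2 or 3, and for MAL33_2 also without day 2 replicate 3. Isomaltase copies moved both ways. IMA2_2 had 31.2, 32.0 and 31.9 CPM on day 5, against 12.01, 19.9 and 16.4 CPM on day 2 (log2 fold change 0.98 ± 0.19 SE, edgeR adjusted p = 0.00755), and IMA1_1 had 182, 264 and 247 CPM on day 5, against 303, 379 and 497 CPM on day 2 (log2 fold change -0.77 ± 0.24 SE, edgeR adjusted p = 0.048). IMA2_2 kept its call when any library was left out, while IMA1_1 lost its call in each of those fits and with library totals. IMA2_1, IMA5_1 and IMA5_5 were higher with edgeR adjusted p = 0.0411, 0.0292 and 0.0498, IMA2_1 losing the call in 4, IMA5_1 in 4 and IMA5_5 in all 6 of the fits that left out a library. Copies within the MAL and IMA families are close in sequence and can share reads.

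**Figure D3:**
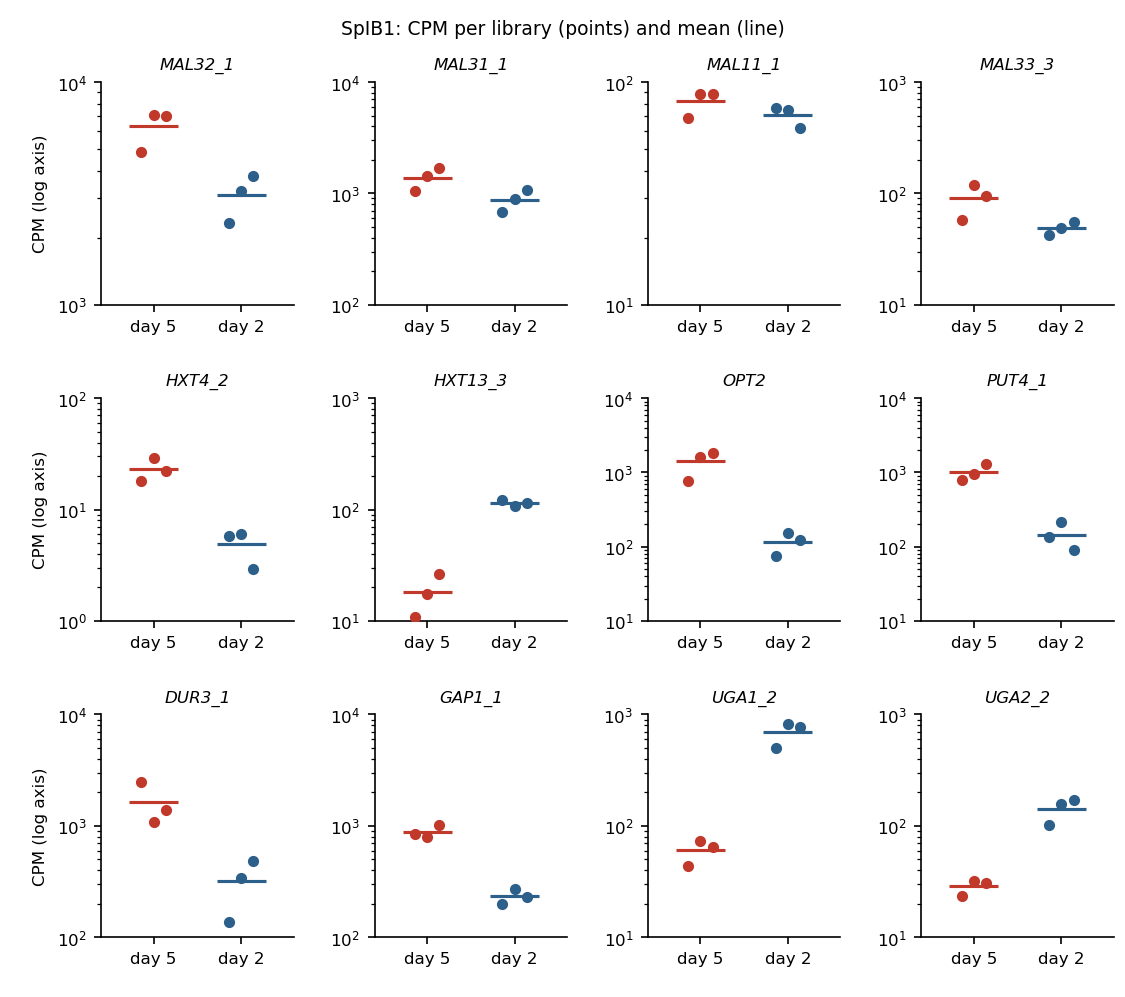
CPM of 12 sugar and nitrogen gene copies in each SpIB1 library (points, log axes that differ between panels) with the mean of each day (line), day 5 in red and day 2 in blue. The days overlap for MAL31_1 and MAL11_1, separate for MAL32_1, and lie far apart for OPT2, PUT4_1 and UGA1_2.

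Hexose transporters showed opposite changes within the family. HXT4_2, a transporter made at low glucose, had 18.2, 28.9 and 22.3 CPM on day 5, against 5.84, 6.004 and 2.93 CPM on day 2 (log2 fold change 2.23 ± 0.28 SE, edgeR adjusted p = 0.00116). HXT13_3 had 10.8, 17.5 and 26.6 CPM on day 5, against 123, 107 and 115 CPM on day 2 (log2 fold change -2.64 ± 0.28 SE, edgeR adjusted p = 0.000439). HXT3_3, of a low-affinity glucose transporter, was 4.20-fold lower and HXT5_2, of a transporter linked to slow growth, 2.61-fold higher. Of 53 tested copies in the list, 10 were higher and 3 lower (18.9% and 5.66%, against 10.4% and 10.9% of all copies). The 10 numbered 4, 5, 4, 4 and 4 without day 2 replicate 1, 2 or 3 or day 5 replicate 2 or 3, and the 3 numbered 5 without day 5 replicate 1 or 3. Outside that list, NRG2_2, a repressor of glucose-repressed genes, was 3.66-fold lower.

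Glycolysis had 1 of 37 copies higher and 3 lower (2.7% and 8.11%, both below the 10.4% and 10.9% of all copies). Its median log2 fold change was -0.24 (0.01 with library totals). The summed level was 28421 to 49640 CPM on day 5 and 41320 to 67270 CPM on day 2, ranges that overlapped. These few calls moved with the libraries, between 0 and 3 higher and between 1 and 2 lower when each was left out. Ethanol and acetate formation had 14 of 32 copies lower and 2 higher, and the 14 included copies of PDC1, PDC5, ADH4, ALD2, ALD3, ALD4, ALD6, ACS2 and SFA1 (9 copies without day 5 replicate 2). The higher copies were both of PDC6, a minor pyruvate decarboxylase, with PDC6_2 at 697, 896 and 1067 CPM on day 5, against 331, 341 and 391.6 CPM on day 2. In the glyoxylate cycle, ICL1_2 (isocitrate lyase) was 2.87-fold higher.

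Among genes of aroma formation, the Ehrlich pathway list had 4 of 17 copies lower and 2 higher (23.5% and 11.8%, against 10.9% and 10.4% of all copies). Its median log2 fold change was -0.30 (-0.05 with library totals). The 4 lower copies, ARO10_1, ARO10_2, ADH6 and THI3_2, numbered 1, 2, 6, 1 and 1 without day 2 replicate 1, 2 or 3 or day 5 replicate 2 or 3, and the 2 higher ones, ARO8 and BAT2_2, 0 to 2 with each library left out. ARO10_2, a decarboxylase of the Ehrlich pathway to higher alcohols, had 99.7, 36.7 and 68.3 CPM on day 5, against 637, 714 and 655 CPM on day 2 (log2 fold change -3.29 ± 0.34 SE, edgeR adjusted p = 0.000391). The alcohol acetyltransferase copies ATF2_2 and ATF1_1, which make acetate esters, were 3.24-fold and 2.10-fold lower. Of 10 tested ester copies 5 were lower, numbering 3, 3 and 2 without day 2 replicate 1, day 2 replicate 2 or day 5 replicate 2.

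Ribosomal protein genes rose together by a small amount. Of 146 large-subunit copies 103 were higher on day 5 (70.5%) and of 103 small-subunit copies 76 were higher (73.8%), with 0 lower in either by edgeR, DESeq2, limma voom or an unadjusted p under 0.05. The median log2 fold changes were 0.75 and 0.74 (1.01 and 1.0 with library totals). Summed levels were 32609 to 43530 CPM on day 5 and 22250 to 24619 CPM on day 2 for the large subunit, and 23492 to 30591 CPM on day 5 and 15269 to 17125 CPM on day 2 for the small one. RPS26B_1 had 213, 172.5 and 162 CPM on day 5, against 65.2, 75.4 and 61.2 CPM on day 2, and RPL30_1 had 259.9, 297 and 234 CPM on day 5, against 92.1, 111 and 106 CPM on day 2. Without day 2 replicate 1, day 2 replicate 2 or day 5 replicate 2, the 103 large-subunit calls numbered 33, 57 and 64 and the 76 small-subunit calls numbered 19, 37 and 37. Ribosomal protein paralogs are near-identical and can share reads.

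Mitochondrial ribosomal proteins had 56 of 121 copies higher and 0 lower by edgeR, DESeq2, limma voom or an unadjusted p under 0.05, with a median of 0.60, and RSM18_1 was 2.27-fold higher. The 56 numbered 11, 17, 11 and 20 without day 2 replicate 1, day 2 replicate 2, day 5 replicate 2 or day 5 replicate 3, 88 without day 5 replicate 1 and 103 with library totals. Ribosome biogenesis factors had 23 of 185 higher (12.4%, near the 10.4% of all copies) and 1 lower, led by NOP16_1 at 291, 272 and 266 CPM on day 5, against 119.8, 97.1 and 106 CPM on day 2. These 23 numbered 7, 10 and 9 without day 2 replicate 1, 2 or 3, 13 and 8 without day 5 replicate 1 or 2, and 66 with library totals, and the 1 lower numbered 0 to 5 over the same fits.

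General stress and reserve genes were lower. HSP12_1, a small membrane-protecting heat shock protein counted with the chaperones below, had 135, 162 and 157 CPM on day 5, against 1637, 1350 and 2920 CPM on day 2 (log2 fold change -3.70 ± 0.35 SE, edgeR adjusted p = 0.000266). YGP1_2, a wall-related glycoprotein made as growth slows, had 153, 166 and 183 CPM on day 5, against 1016, 923 and 1542 CPM on day 2, and SIP18_1, a hydrophilin, 217, 107 and 114 CPM on day 5, against 918, 713 and 1059 CPM on day 2. Day 2 replicate 3 was the highest library in all 3 genes. Of 61 tested copies in the list of general stress and stationary-phase genes, 25 were lower (41.0%) and 4 higher, with a median of -0.59 (18 to 23 lower with each library left out). MSN2_1, an activator of the stress response, was 3.36-fold lower, and SPI1_2, a wall protein of that response, was 4.09-fold lower. The stationary-phase copy SPG5_2 was 2.06-fold higher. The higher copies numbered 7 without day 5 replicate 1.

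Among antioxidant genes 16 of 54 copies were lower and 4 higher. The cytosolic catalase CTT1_1 was 6.17-fold lower, and the peroxiredoxin TSA2_1 was 6.18-fold lower. The 16 numbered 8 without day 5 replicate 2, and the 4 numbered 2 without day 2 replicate 1. Trehalose and glycogen genes had 13 of 47 copies lower and 2 higher, the higher ones being both copies of GAC1, a targeting subunit of the phosphatase that activates glycogen synthase. GAC1_1 had 370, 481 and 555 CPM on day 5, against 111, 117 and 222 CPM on day 2. The 13 lower copies numbered 7, 6 and 2 without day 2 replicate 1, day 2 replicate 3 or day 5 replicate 2, 20 by DESeq2 and 8 with library totals. Chaperones had 8 of 64 copies lower and 5 higher (12.5% and 7.81%), near the 10.9% and 10.4% of all copies. Their median was -0.26, and -0.01 with library totals. HSP26_1 was 3.66-fold lower, beside HSP12_1. The 8 numbered 5 and 4 without day 2 replicate 3 or day 5 replicate 2, and the 5 numbered 0, 1, 0 and 1 without day 2 replicate 1, day 2 replicate 2, day 5 replicate 2 or day 5 replicate 3.

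Among protein turnover genes, the proteasome list had 12 of 71 copies lower (16.9%, against 10.9% of all copies). Its median was -0.20, which library totals turned to 0.06 (6 lower). Without day 2 replicate 1 or 2 or day 5 replicate 2 or 3 the 12 numbered 6, 7, 7 and 7. RPN4_1, the activator of the proteasome genes, was 1.97-fold lower. EdgeR called 0 proteasome copies higher, as did DESeq2, limma voom and an unadjusted p under 0.05. Autophagy genes had 9 of 68 copies lower and 3 higher (13.2% and 4.41%, against 10.9% and 10.4% of all copies). Their median was -0.19, which library totals turned to 0.07. The 9 numbered 3, 3, 3 and 5 without day 2 replicate 1, day 2 replicate 2, day 5 replicate 2 or day 5 replicate 3, and the 3 higher ones numbered 5 without day 2 replicate 3. The receptor ATG39_1 was 2.61-fold higher. Vacuolar proteases had 9 of 22 copies lower (40.9%, median log2 fold change -0.49), among them PAI3, the inhibitor of proteinase A, at 4.89-fold lower (5 and 4 copies without day 2 replicate 3 or day 5 replicate 2). Both copies of the carboxypeptidase CPS1 were called higher, and 1 of them without day 2 replicate 1, day 2 replicate 2, day 5 replicate 2 or day 5 replicate 3.

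Genes of phosphate, thiamine and iron supply held calls in both directions, and zinc genes held only lower ones. The glycerophosphoinositol permease GIT1_1, which can supply phosphate, had 48.3, 114 and 105 CPM on day 5, against 10.9, 9.67 and 8.30 CPM on day 2 (log2 fold change 3.21 ± 0.32 SE, edgeR adjusted p = 0.000292). The secreted acid phosphatase PHO5 had 25.2, 15.1 and 22.9 CPM on day 5, against 95.9, 88.4 and 94.1 CPM on day 2 (log2 fold change -2.14 ± 0.20 SE, edgeR adjusted p = 0.000269). The phosphate list as a whole had 3 of 44 copies higher and 5 lower (6.82% and 11.4%, against 10.4% and 10.9% of all copies). Iron genes had 10 of 47 copies higher and 3 lower (21.3% and 6.38%, against the same shares of all copies). The 10 numbered 2, 4 and 4 without day 2 replicate 1, 2 or 3, and 1 and 5 without day 5 replicate 2 or 3, and the 3 lower ones numbered 0 to 8 with each library left out. COT1_2, a vacuolar zinc transporter, was 3.31-fold lower and THI5, of thiamine synthesis, was 3.43-fold higher. Thiamine genes had 6 of 37 copies higher and 4 lower (16.2% and 10.8%, against 10.4% and 10.9% of all copies). They numbered 3 to 4 and 2 to 5 with each library left out. Zinc genes had 10 of 24 copies lower (41.7%, against 10.9% of all copies) and 0 higher by edgeR, DESeq2, limma voom or an unadjusted p under 0.05. The 10 numbered 5, 5, 6 and 4 without day 2 replicate 1, day 2 replicate 2, day 5 replicate 2 or day 5 replicate 3, the 3 phosphate copies 1 and 6 without day 2 replicate 1 or day 5 replicate 1, and the 5 phosphate copies 2 without day 2 replicate 1, day 2 replicate 2 or day 5 replicate 2.

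Genes of dividing cells moved in both directions. POL30_1, the sliding clamp of DNA replication, had 20.5, 45.2 and 31.9 CPM on day 5, against 11.9, 13.8 and 12.7 CPM on day 2, and the histone H2B copy HTB2_1, in a list with 5 of 21 copies higher, had 78.6, 139 and 98.5 CPM on day 5, against 26.2, 40.4 and 33.0 CPM on day 2. The cyclin PCL1_1 was 5.37-fold higher at a low level, a call that ended without day 5 replicate 2, and the cell separation gene EGT2 was 2.93-fold lower. DNA replication genes had 14 of 57 copies higher and 5 lower, the lower ones being copies of the ribonucleotide reductase genes RNR2, RNR3 and RNR4 (RNR2_2 at 2.69-fold). Cell cycle genes had 13 of 68 higher and 5 lower (19.1% and 7.35%, against 10.4% and 10.9% of all copies). Without any 1 library other than day 5 replicate 1 the 14 numbered 5 to 8 and the 13 numbered 3 or 4, limma voom called 7 cell cycle copies, and the list medians were 0.25 and 0.01. The summed level of the cell cycle list was 2001 to 2240 CPM on day 5 and 2137 to 2556 CPM on day 2. The 5 histone copies numbered 2 and 1 without day 2 replicate 1 or day 5 replicate 2 and 13 without day 5 replicate 1. The 5 lower replication copies numbered 2 or 3 without any 1 library other than day 5 replicate 1, and the 5 lower cell cycle copies 3 without day 2 replicate 2 or day 5 replicate 2.

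Cell wall genes held calls both ways, with 9 of 54 copies higher and 7 lower (16.7% and 13.0%, against 10.4% and 10.9% of all copies). SCW10_1, of a glucanase-like wall protein, had 12.5, 51.8 and 47.0 CPM on day 5, against 3.67, 6.17 and 4.56 CPM on day 2, and PST1_1, a wall protein made when the wall is damaged, was 4.37-fold lower. The 9 numbered 4, 4, 5 and 5 without day 2 replicate 1, day 2 replicate 2, day 5 replicate 2 or day 5 replicate 3, and the 7 numbered 4, 3 and 3 in the first 3 of these fits. Markers of other cell states had summed levels that overlapped between days. The sporulation markers summed to 869 to 1058 CPM on day 5 and 827.8 to 931.1 CPM on day 2, with 7 of 52 copies higher (0 to 10 with each library left out) and 5 lower, and the mating and haploid markers to 312.5 to 368.7 CPM on day 5 and 366.2 to 401.7 CPM on day 2, with 1 of 28 higher and 1 lower. The shares called were 13.5% higher and 9.62% lower for the sporulation markers and 3.57% each way for the mating and haploid markers. The part of these markers in the results above was not tested.

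**Figure D4:**
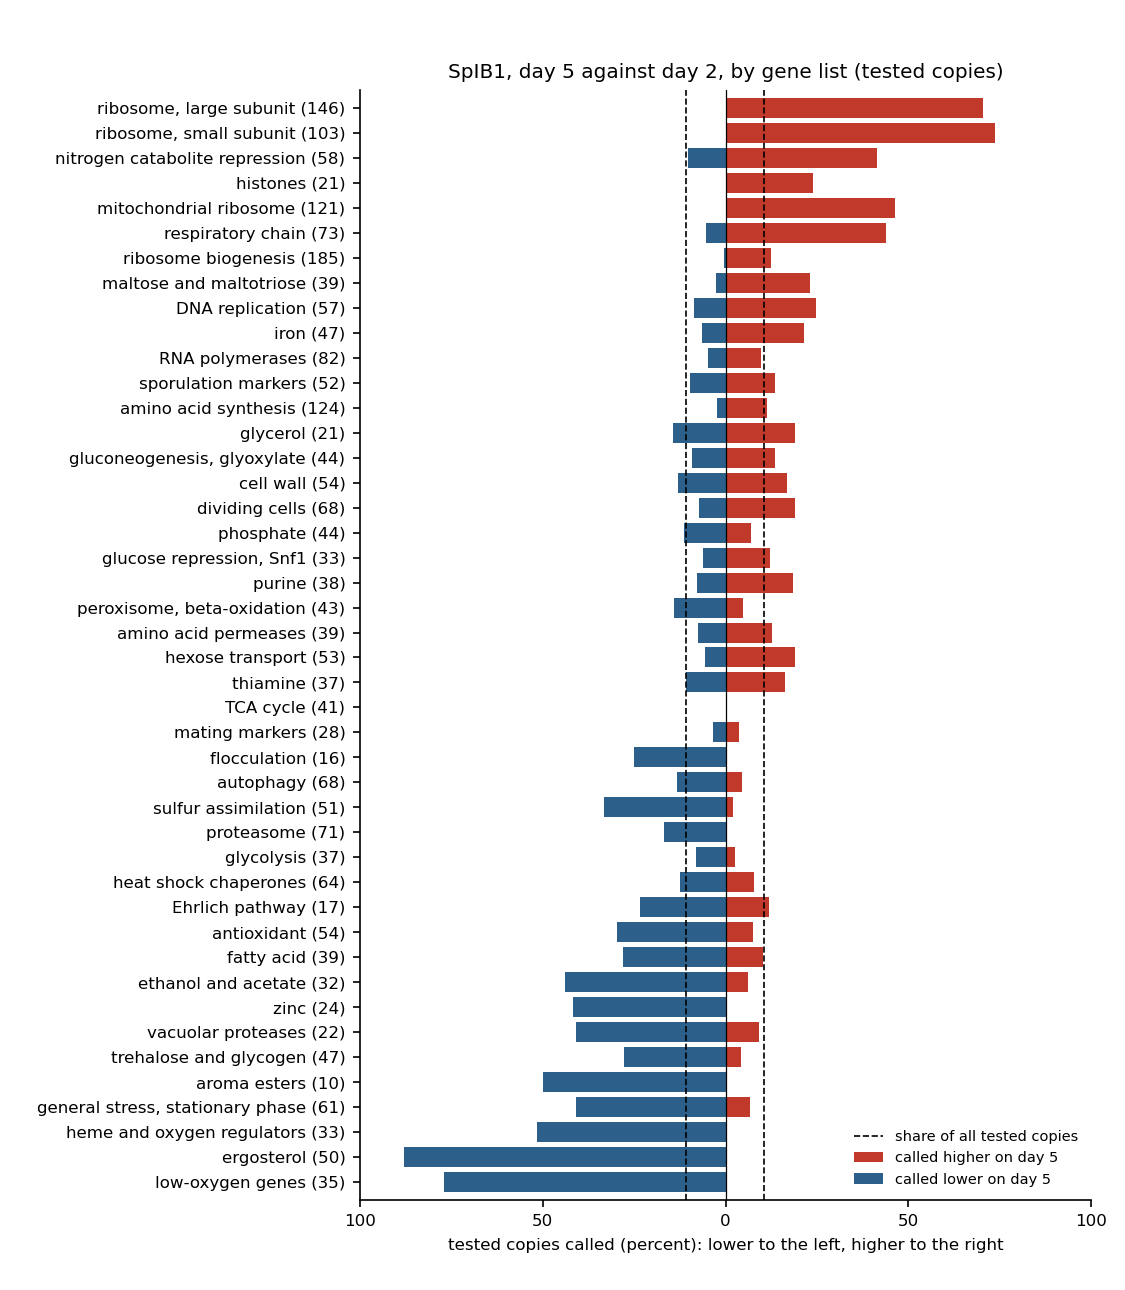
Share of the tested copies of each of 44 gene lists that edgeR called higher (red, to the right) or lower (blue, to the left) on day 5 in SpIB1, ordered by median log2 fold change, with the number of tested copies in parentheses and the shares among all tested copies as dashed lines (10.4% and 10.9%). Low-oxygen genes (77.1% lower) and ergosterol (88.0% lower) stand at the bottom and the ribosomal proteins (70.5 and 73.8% higher) at the top.

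Copies with a locus tag only, to which the files pair no name, also changed. GRS66_005923 had 625, 1570 and 1294 CPM on day 5, against 5.84, 17.0 and 11.6 CPM on day 2 (log2 fold change 6.66 ± 0.51 SE, edgeR adjusted p = 0.000114), the largest log2 fold change among all tested copies. GRS66_002556 rose by 3.21 on the log2 scale, and GRS66_010694 and GRS66_002524 had log2 fold changes of -4.29 and -3.98.

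Since most symbols had 2 copies, the balance between copies could be followed from day to day. Copy 1 held 58.3, 59.7 and 57.9% of the reads of 3938 such symbols on day 5, against 56.7, 56.9 and 57.3% on day 2. The ratio of the copies was tested for 3456 symbols with at least 50 reads per library on average in each copy, by limma on the log2 ratio, which needs no scaling between libraries. At an adjusted p under 0.05 the ratio moved toward copy 1 in 439 symbols (12.7%) and toward copy 2 in 214 (6.19%), with a median change of 0.07. The 439 numbered 235 and 239 without day 2 replicate 1 or day 5 replicate 2, and the 214 numbered 129, 138 and 124 without day 2 replicate 1, day 5 replicate 2 or day 5 replicate 3. In 331 symbols both copies were called in the same direction, 155 up and 176 down, and in 7 they were called in opposite directions, each with a called ratio.

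**Figure D5:**
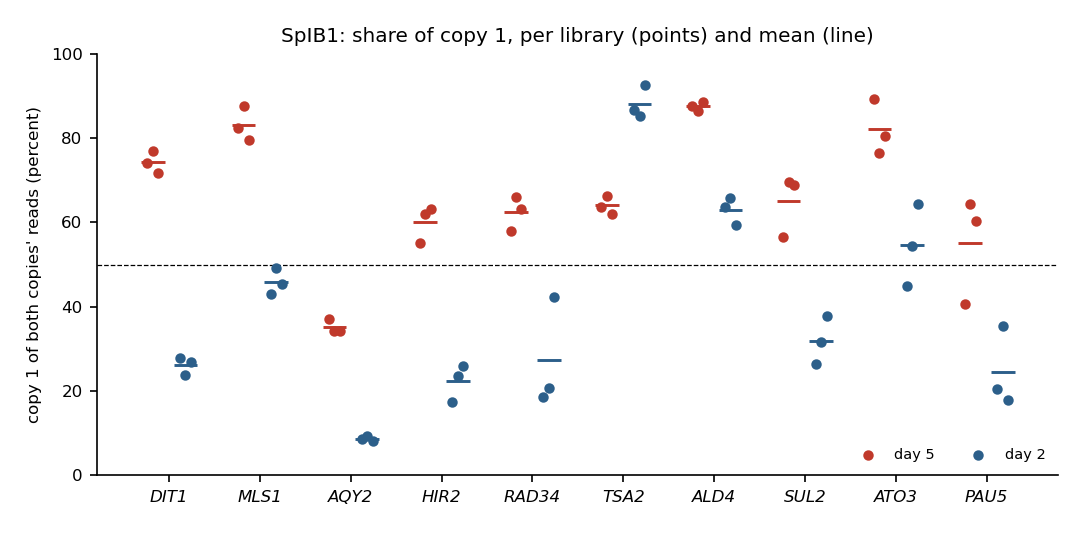
Percent of the reads of both copies that fell in copy 1, for the 10 symbols with the largest called change of the copy ratio in SpIB1, in each library (points) and as the mean of each day (line), day 5 in red to the left of day 2 in blue. AQY2 stands at 34.3 to 37.1% on day 5 and 8.02 to 9.26% on day 2, and only TSA2 has a lower share on day 5.

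MLS1, malate synthase of the glyoxylate cycle, had the largest ratio change of the opposite pairs. MLS1_1 had 93.6, 163 and 131 CPM on day 5, against 34.9, 37.7 and 54.5 CPM on day 2, while MLS1_2 had 19.9, 23.1 and 33.5 CPM on day 5, against 46.2, 38.9 and 65.9 CPM on day 2. Copy 1 thus held 82.4, 87.6 and 79.7% of MLS1 reads on day 5, against 43.0, 49.2 and 45.3% on day 2 (ratio change 2.58 ± 0.20 SE on the log2 scale, limma adjusted p = 1.07e-05). The fall of MLS1_2 was no longer called without day 2 replicate 3 or day 5 replicate 2, whereas the ratio was called in every fit. Copy 1 of the mitochondrial aldehyde dehydrogenase ALD4 held 87.7, 86.5 and 88.6% on day 5, against 63.6, 65.7 and 59.4% on day 2, while ALD4_2 fell by 2.40 on the log2 scale and ALD4_1 was not called. In DIT1, a spore wall gene, copy 1 held 71.7 to 77.0% on day 5 and 23.7 to 27.8% on day 2, DIT1_2 being 5.16-fold lower. The ratio of PAU5 copies was also called, but not without day 5 replicate 2 or 3. The remaining opposite pairs were FRE7, LCB4, TMT1, TRP4, UBX6 and YSC83.

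The change from day 2 to day 5 was then set against that in SpIB2, in 1 fit to all 12 libraries with a test of the difference itself. Of 10659 copies, 1265 (11.9%) had a change that was higher in SpIB1 than in SpIB2 and 1554 (14.6%) a lower one. Library totals gave 2857 and 692. Leaving out SpIB1 day 2 replicate 1, 2 or 3 left 711, 759 and 602 higher, leaving out SpIB1 day 5 replicate 1 or 2 left 761 and 715, and the 1554 lower ones numbered 1012 and 997 without SpIB1 day 2 replicate 3 or SpIB1 day 5 replicate 2. Of the 2207 copies called in the fit to SpIB1 alone, 843 were also called for the difference, beside 2819 of all 10659 copies (26.4%). The same SpIB1 libraries entered both calls, so this overlap is partly fixed by that choice and is not read against the 26.4%.

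In this paragraph, medians and changes of SpIB1 come from the fit to SpIB1 alone, and those of SpIB2 from the fit to all 12 libraries. They need not differ by exactly the tested difference. Ergosterol synthesis fell in both strains, with a median log2 fold change of -1.48 in SpIB1 against -1.43 in SpIB2. The fit to all 12 libraries called 30 ergosterol copies lower in SpIB2, and fewer in SpIB1, as given above. The test of the difference called 4 of 50 copies, all lower in SpIB1, but with library totals it called 5 higher and 2 lower. Low-oxygen genes fell further in SpIB1, with medians of -2.35 in SpIB1 and -0.37 in SpIB2 and 17 of 35 copies called for the difference in that direction (1 in the other, 11 and 3 with library totals, and 13 to 18 with each library left out). The median fitted difference over this list was -1.65. Ribosomal proteins differed in direction: the large subunit had a median of 0.75 in SpIB1 and -1.29 in SpIB2 and the small one 0.74 in SpIB1 and -1.30 in SpIB2. The difference was called in 129 of 145 and in 92 of 103 copies, and in 78 to 139 and in 46 to 95 with each library left out. Without SpIB1 day 2 replicate 1, SpIB1 day 2 replicate 3 or SpIB1 day 5 replicate 1 they were called in 85, 78 and 80 large-subunit and in 52, 46 and 53 small-subunit copies. Stress and stationary-phase genes had a median of -0.59 in SpIB1 and 1.80 in SpIB2, with 39 of 61 copies called lower in SpIB1 for the difference, and 33 to 42 with each library left out. Their median fitted difference was -2.5. In nitrogen catabolite repression, 23 of 58 copies were called higher in SpIB1 for the difference (18 to 29 with each library left out, and 37 with library totals), GAP1_1 by 4.60 ± 0.51 SE on the log2 scale. For the maltase copy MAL32_1 the change was 1.02 in SpIB1 and -1.20 in SpIB2, a difference of 2.20 (edgeR adjusted p = 0.0102). Over the 39 tested copies of the maltose and maltotriose list the difference was called higher in SpIB1 for 5 and lower for 9, and with library totals for 6 and 2. The 9 lower copies numbered 4 without SpIB1 day 2 replicate 2, SpIB1 day 2 replicate 3 or SpIB1 day 5 replicate 1, and 5 without SpIB2 day 2 replicate 1.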

How the data were processed

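RNA was sequenced from 12 lager yeast libraries, and 6 of these, all of SpIB1, are described here. The deposited values are read counts per gene copy as the authors made them, whole numbers with no normalization. The submitters' processing notes name, with no roles, HTSeq 0.11.1, the aligner STAR 2.7.3a, the trimmer Trimmomatic 0.38 and edgeR 3.34.0. Genome build, annotation, strand setting and treatment of multiply mapped reads were not given in the sources used here, so single copies of near-identical genes are uncertain.

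For SpIB1, 22 cells in 22 copies held the strain name in place of digits and could not be read as counts. These copies were left out, which left 11290 readable ones, and edgeR's filterByExpr dropped 941. The remaining 10349 were tested with edgeR 4.0.16 (R 4.3.3, TMM scaling, robust quasi-likelihood test, Benjamini-Hochberg adjustment over all of them) on the 6 SpIB1 libraries alone. Copy ratios were tested with limma 3.58.1 after adding 0.5 to each count, and the difference from SpIB2 with edgeR on all 12 libraries. Counts summed over copies of a symbol were fitted in the same way. Programs were tested on simulated data. The main test recovered 77% of planted 2-fold and 99% of planted 4-fold changes, with 8.81% of its calls wrong. The test of the difference recovered 59.4% of planted 4-fold differences, with 5.65% of its calls wrong, so true differences can go uncalled. A simpler form of the copy ratio test recovered 99% of planted 4-fold changes, with 1.98% wrong. Tables and figures were made with Python 3.11.15, pandas 2.3.3 and matplotlib 3.10.9.

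The alternatives were DESeq2 1.42.0, limma voom, other scalings and filters, a replicate block, a fit to all 12 libraries and leaving out each library. Named copies were the maltose genes, the called copies of largest change among all copies, in each list and in copy ratio, with a mean of at least 10 CPM on the higher day, and a few picked after their values were seen. The members and gene lists were chosen with earlier results of these data known. The labels do not say whether replicate numbers pair the days, and the main fit took the libraries as unpaired. Same-numbered libraries deviated together with r of 0.472, 0.0124 and 0.378, and unlike-numbered ones with r of -0.422 to 0.202. Whether they were paired cannot be settled from these values.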

Additional observations from a re-analysis of the deposited data

Results flagged for a closer look

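For 65 of the 123 named copies tested in both strains, the change from day 2 to day 5 in SpIB1 differed from that in SpIB2 by the test of the difference itself (edgeR adjusted p under 0.05, 26.4% of all copies tested). The difference was positive, meaning a higher day effect in SpIB1, for 21 and negative for 44, and for 40 the fitted changes of the strains had opposite signs. All values are log2 differences, SpIB1 minus SpIB2, and the cause of none was tested. Most of these copies were named for a large called change in the same SpIB1 libraries, so their share is partly fixed by that choice and is not read against the 26.4%.

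Of the 39 tested copies of the maltose and maltotriose list, 5 differed on the higher side and 9 on the lower (6 and 2 with library totals). The higher 5 were copies of maltases, MAL12_1 by 1.83, MAL12_2 by 1.73, MAL32_1 by 2.20, MAL32_2 by 1.82 and MAL62 by 1.66. The lower 9 were the permeases MAL11_1 (-1.28) and MAL31_4 (-1.46), the activators MAL33_3 (-1.53) and MAL63 (-1.75), the regulator copies ZNF1_1 (-1.80) and ZNF1_2 (-1.93), and the isomaltase copies IMA2_6 (-2.15), IMA2_8 (-1.64) and IMA2_9 (-1.82). Hexose transporters ran from 2.97 for HXT4_2 to -5.31 for HXT13_3, -6.03 for HXT3_3 and -6.97 for HXT5_2, and the repressor NRG2_2 had -1.05. In carbon metabolism PDC6_2 had 1.67 and MLS1_1 1.74, TKL2_1, a transketolase, had -2.48, and PMA2_1, a proton pump, had -1.65.

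The named copies of low-oxygen, lipid and aroma genes that differed were all on the lower side. In the whole lists the difference was called higher for 1 and lower for 17 low-oxygen copies, and for 4 and 17 fatty acid copies. TIR1_2 had -2.79, TIR1_1 -2.94, PAU17_1 -4.04 and PAU5_2 -3.92, HAP1_1 had -2.28, NCP1_2 -2.90, UPC2_1 -2.95 and ECM22_1 -2.31, and FAA4_1 had -2.65, OLE1_2 -2.25, ATF1_1 -1.46, ARO10_2 -2.64 and FHN1_2, of the eisosome, -4.60.

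Nitrogen transporters were the largest on the higher side. OPT2 had 5.06, GAP1_1 4.60, PUT4_1 4.58, DUR3_1 4.21 and DIP5 4.20, with CAR1_1 at 2.69 and DAL80_1 at 1.80, whereas UGA2_2 had -2.32 and SER33_2 -2.04. Other transporters followed with CTR3_1 (copper) at 3.0, GIT1_1 at 2.86 and FUR4_1 (uracil) at 2.55, while PHO5 had -1.40 and COT1_2 -1.70.

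The named stress, wall and turnover copies that differed were on the lower side. In the whole lists the difference was called higher for 3 and lower for 39 stress and stationary-phase copies, and for 4 and 14 cell wall copies. SIP18_1 had -5.48, SPG5_2 -5.13, SPI1_2 -5.00, HSP12_1 -2.66, HSP26_1 -2.64, YGP1_2 -2.23 and TSA2_1 -3.31, and PST1_1 had -3.32, PAI3 -3.36, RPN4_1 -2.92, ATG39_1 -1.77 and DIT1_2 -2.40. The named growth copies that differed were on the higher side, with HTB2_1 at 3.50, RPS26B_1 at 2.68 and RPL30_1 at 2.63. Among mitochondrial ribosomal proteins the difference was called higher for 1 copy and lower for 10.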

How the results depend on the processing

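With library totals in place of TMM, SpIB1 had 2575 copies higher and 686 lower on day 5, the symbols 1300 and 294, and the difference from SpIB2 2857 and 692, beside 1074, 1133, 530, 518, 1265 and 1554 with TMM. A spread shared by all 12 libraries left 92 and 278 calls, and a 2-fold minimum 315 and 529. Leaving out each library in turn gave 366 to 1275 higher and 566 to 1281 lower copies, 166 to 632 and 240 to 585 symbols, 235 to 415 and 124 to 215 copy ratios toward copy 1 and copy 2, and 602 to 1492 and 997 to 1769 for the difference from SpIB2. Whether replicate numbers pair the days is not stated. Same-numbered libraries deviated together most for replicates 1 and 3 (r of 0.472 and 0.378), but day 5 replicate 2 did so with day 2 replicate 3 (0.202). The replicate block gave 1551 and 1648 copies, 798 and 794 symbols, 562 and 278 ratios, and 801 and 1146 for the difference. The cause of these shifts was not tested, except that each left-out library leaves fewer samples. Library totals turned which direction held more calls and the medians of lists close to 0. Signs were followed for the named copies only. None of these that was called in SpIB1 changed sign, while uncalled ones near 0 did: OLE1_2 (0.20), IMA2_6 (0.14), IMA2_8 (0.07), ZNF1_2 (0.16) and summed ZNF1 (0.26) with library totals, summed ZNF1 (0.01) with the replicate block, and, with 1 library left out, MAL11_2 (-0.13 to 0.14), MAL32_2 (-0.01 to 0.55), MPH3 (-0.04 to 0.26, summed -0.05 to 0.25), OLE1_2 (-0.11 to 0.02), ZNF1_1 (-0.11 to 0.31), ZNF1_2 (-0.27 to 0.06) and summed ZNF1 (-0.18 to 0.16). Most calls over all copies were lost in the fit to all 12 libraries. The named copies that lost the call in that fit and in no other were ATF1_1, ATG39_1, COX5A_1, CTR3_1, CYC1_2, ECM22_1, FAA1_2, FAA4_1, FUR1_1, FUR4_1, GAC1_1, HAP1_1, HSP26_1, HTB2_1, HXT3_3, HXT5_2, IMA2_2, IMD3_2, MEP2_1, MOT3_1, NCA3_1, NDE1_1, PDC6_2, PUT4_1, RPL30_1, RPN4_1, RPS26B_1, RSM18_1 and SPG5_2. Among the single copies, symbols and ratios named here only, 1858 values under an alternative kept their direction and their side of the threshold. In the same set 92 lost the call, 17 gained one and 18 changed sign. Most of these were named for a large called change, so the tally does not describe all tested copies. Depth limits copies near 3 reads per library, and replicates differed by more than counting error, with a chi-square per degree of freedom of 8.06 to 46.7.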

Other observations

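Further genes of sterol handling that no list held were lower in SpIB1 on day 5, and all in this paragraph and the next were chosen after their values were seen. The steryl ester hydrolase copy YEH1_2 had 239.8, 62.2 and 117 CPM on day 5, against 1542, 1143 and 1062 CPM on day 2 (log2 fold change -3.16 ± 0.45 SE, edgeR adjusted p = 0.00216). HES1_1, of the oxysterol-binding family, was 5.82-fold lower, and PRY1_1, a sterol-binding secreted protein, was 4.84-fold lower. Day 5 replicate 2 was the lowest library for all 3.

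Copies of 3 pyrimidine genes were higher. The uracil permease FUR4_1 had 203.8, 129.9 and 122 CPM on day 5, against 44.4, 63.0 and 26.4 CPM on day 2 (log2 fold change 1.77 ± 0.31 SE, edgeR adjusted p = 0.00541). FUR1_1, which salvages uracil, was 2.49-fold higher, and URA2_1, which starts pyrimidine synthesis, was 2.63-fold higher. ISF1_1, of no list, was 4.98-fold higher.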
